A study of Mus musculus with 3 samples.

Results

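Described here are 37 genes of glycolysis and of the response to low oxygen, in primary dendritic cells grown from mouse bone marrow. They are 37 of the 34590 gene symbols in the deposited table, taken by symbol, and every symbol was found. Glucose uptake, the glycolytic enzymes, lactate export and 2 regulators of the pathway made up 18 of them, and the other 19 are hypoxia response genes. The cells in all 3 libraries came from marrow cultured with granulocyte-macrophage colony-stimulating factor at 500 U/ml, of which the floating cells were taken on day 6. The first library came from cells given recombinant articulatin B chain (rATB, the lectin chain of a plant toxin) at 800 ng/ml for 48 h, the next from cells given buffer, and the last from untreated control cells. Its label gives the buffer library a dose of 1 ng/ml, the meaning of which is unclear, and what the buffer contained is not given in the labels. Each group was 1 library, so no difference below has a replicate check and none was tested. The labels do not say how many mice gave marrow.

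Cells that have oxygen keep the transcription factor HIF-1α scarce, because prolyl hydroxylases (the Egln proteins) mark it for destruction. When oxygen falls, or when immune signals raise it, HIF-1α switches on glucose transporters, glycolytic enzymes, lactate export, mitochondrial clearance, blood vessel growth factors and its own hydroxylases, which limit the response. Dendritic cells draw on glycolysis when they become activated, and the enzyme nitric oxide synthase 2, a HIF target, can hold back their mitochondrial respiration.

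Levels are given in units, where 1 unit is 1 read in 1000000 of the control library's reads after the authors' scaling. The reads recovered from the deposited values summed to 15203139 in the rATB library, 16105080 in the buffer library and 17776492 in the control library, and 1 unit stood for 15.7 reads in rATB, 17.1 in buffer and 17.8 in control. Differences are on the scale log2(value + 1), and ratios are given with the exact conditional (Clopper-Pearson) 95% interval of the recovered reads, which covers counting error only. A gene entered the counts below if its mean over the 3 libraries was at least 1 unit, which 12559 genes and 35 of the 37 members did. All 6 dendritic cell markers (Itgax, Flt3, Zbtb46, Cd74, Fscn1 and Ccr7) had reads in every library. Their sum, 8834 units in rATB, 10947 in buffer and 13039 in control, was mostly Cd74, with 6059 in rATB, 8533 in buffer and 10811 in control, while Flt3, Zbtb46, Fscn1 and Ccr7 were highest in rATB and lowest in control. Itgax was highest in buffer and lowest in rATB. The 9 macrophage and monocyte markers also had reads in every library and summed to 3601 units in rATB, 3955 in buffer and 5091 in control, 8 of them being highest in control, with C1qa at 134 units in rATB, 258 in buffer and 386 in control. The 7 neutrophil and precursor markers summed to 37.9 units in rATB, 36.8 in buffer and 41.2 in control, and the erythroid, B cell, T cell and mast cell lists each summed to at most 0.508 units in any library, with Ms4a1, Cd3e and Mcpt8 at 0 reads in all 3. The 5 proliferation genes summed to 207 units in rATB, 303 in buffer and 287 in control. Of the 4 lists that summed to over 1 unit, only the neutrophil list had its lowest sum in buffer. The share of reads on mitochondrial genes, 1.95% in rATB, 2.27% in buffer and 2.07% in control, was highest in buffer. The part of that share in the results below was not tested, and in a bulk sample fewer cells of a type and less RNA per cell cannot be told apart.

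Most of these genes were lowest in the library from cells given buffer, and most were highest in the untreated control. They were chosen with earlier results of these data known, so their shares here and below may partly reflect that choice. The buffer library was the lowest of the 3 for 30 of the 35 members past the filter (85.7%), against 35.8% of all 12559 genes, and it was the highest for none of them, against 22.7% of all genes. The control library was the highest for 26 members (74.3%), against 44% of all genes. The rATB level lay above buffer and below control for 22 members (62.9%), against 16.3% of all genes in that same order. It was nearer to control than to buffer on the log2 scale for 24 members (68.6%), against 47.3% of all genes. The 5 members whose lowest library was another one were Pfkp, Aldoc, Egln2 and Kdm3a, lowest in rATB, and Hif1a, lowest in control.

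In size the differences were modest. The median difference over the 35 members was 0.36 for rATB minus buffer, against 0.00 over all genes with a standard deviation of 0.32. It was -0.15 for rATB minus control, against -0.06 over all genes (SD 0.33), and -0.48 for buffer minus control, against -0.05 over all genes (SD 0.19). The first and last of these comparisons share the buffer library, so a low value there moves both.

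**Figure D1:**
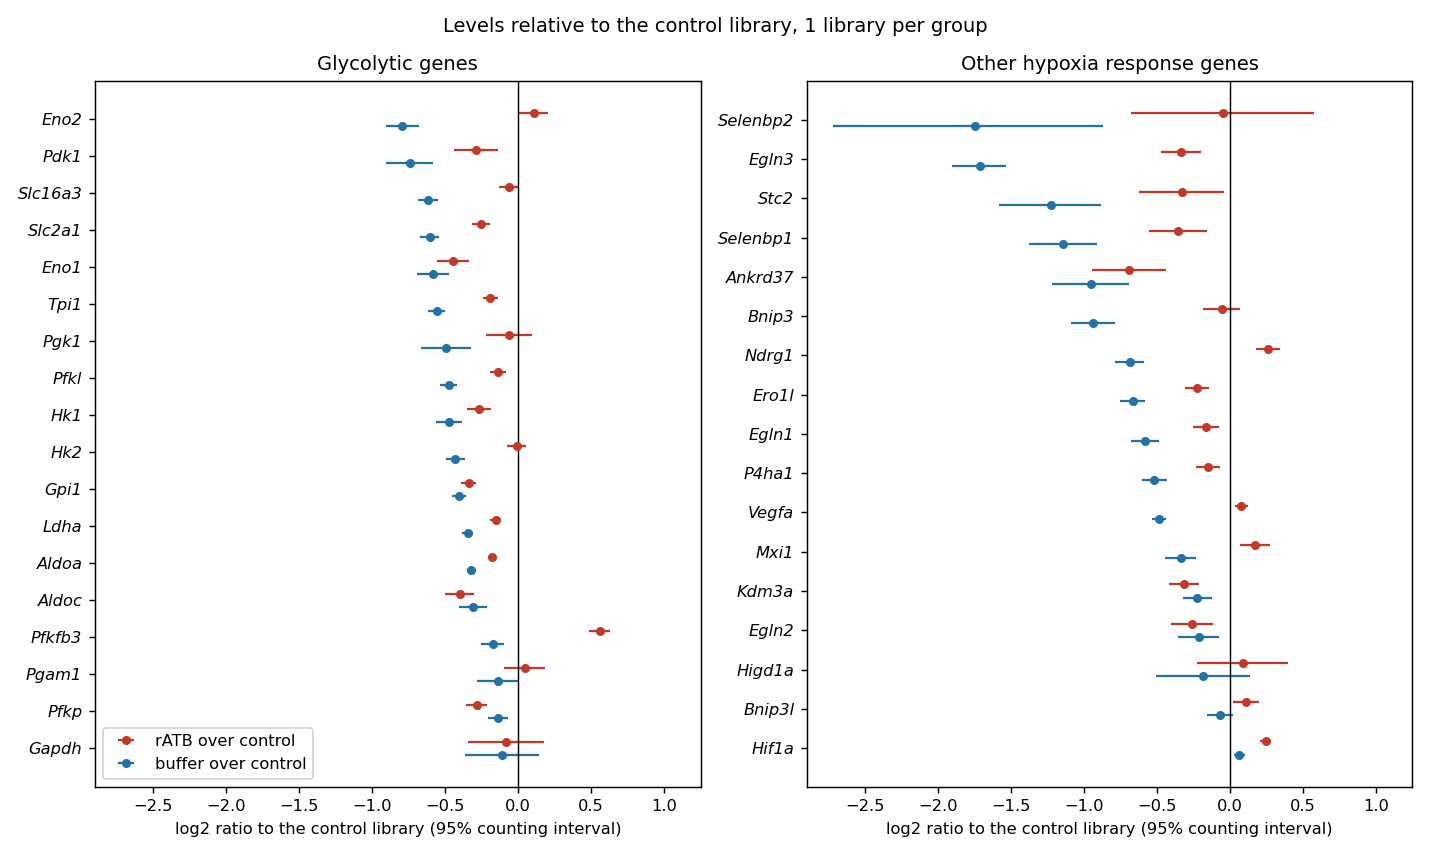
Log2 ratio of the rATB library (red) and of the buffer library (blue) to the control library for the 18 glycolytic genes (left) and the 17 other hypoxia response genes past the filter (right), with no pseudocount; bars are 95% counting intervals. The blue points lie left of the red ones for all but Aldoc, Pfkp, Kdm3a and Egln2, and reach furthest left for Selenbp2, Egln3 and Stc2.

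Counting error does not cover these differences for most members. For 25 of the 35 (71.4%) the intervals against rATB and against control both placed buffer lower, against a background of 7.81% of all genes and 12.3% of the 7099 genes of at least 20 units. By the same rule no member was higher in buffer than in both others (background 2.36%). A difference of at least 0.5 against both other libraries left 8 members lower in buffer, against 0.342% of all genes and 0.197% of the genes of at least 20 units. These were Egln3, Bnip3, Ndrg1, Stc2, Selenbp1, Selenbp2, Eno2 and Slc16a3, and they are 18.6% of the 43 genes that met that rule. Selenbp1 and Selenbp2 share most of their sequence, so their values are not independent. In the other direction 30 of the 12559 genes were higher in buffer (0.239%), none of them a member. With scaling by each library's own total the counts over all genes were 32 lower and 51 higher, and with scaling by the median of ratios 39 lower and 42 higher, while 8 members were lower and 0 higher under both. At a difference of at least 1 only Egln3 and Selenbp2 were left among the members, against 4 of all genes (0.0318%). Vegfa was just outside the rule of 0.5, with 0.56 for rATB minus buffer and -0.48 for buffer minus control, and Slc16a3 just inside it, with 0.55 for rATB minus buffer and -0.62 for buffer minus control.

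Among the oxygen sensors, Egln3 (ENSMUSG00000035105) differed most between libraries. It encodes a prolyl hydroxylase that HIF-1 itself induces, and it had 47.3 units in rATB, 18.2 in buffer and 59.6 in control. Its rATB level was 2.61 times the buffer level (2.28 to 2.99), its buffer level was 0.304 times the control level (0.267 to 0.346), and its rATB level was 0.794 times the control level (0.722 to 0.873). By the smaller of its differences from the other libraries it ranked 2 of 12559 genes for being low in buffer. Egln1, the main sensor of oxygen in most cells and also a HIF target, had 111 units in rATB, 83.6 in buffer and 125 in control, with buffer at 0.669 times control (0.625 to 0.715). Egln2, a sensor that hypoxia does not usually induce, had 42.8 units in rATB, 44.1 in buffer and 51.2 in control, and its rATB to buffer interval (0.873 to 1.08) spanned 1. Hif1a itself, the gene for the factor, went another way, with 752 units in rATB, 662 in buffer and 634 in control. Its ratio of rATB to control was 1.19 (1.16 to 1.22) and of buffer to control 1.04 (1.02 to 1.07). The factor is held in check mainly as a protein, which these libraries do not measure.

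The genes that act on mitochondria all had their lowest level in buffer, by unlike amounts and not all beyond counting error. Bnip3 (ENSMUSG00000078566), whose protein starts the removal of mitochondria in hypoxia, had 57.3 units in rATB, 31.1 in buffer and 59.6 in control. The rATB level was 1.84 times buffer (1.65 to 2.05) and 0.960 times control (0.878 to 1.05), an interval that spans 1, and buffer was 0.521 times control (0.469 to 0.579). Its relative Bnip3l, which serves mitochondrial removal as well, stayed closer, at 128 units in rATB, 113 in buffer and 119 in control, where the buffer to control interval (0.897 to 1.02) spanned 1. Higd1a, which encodes a small protein of the inner mitochondrial membrane, had 10.8 units in rATB, 8.96 in buffer and 10.2 in control, and all 3 of its intervals spanned 1.

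The secreted factors past the filter were both lowest in buffer. Vegfa, the growth factor for blood vessels, had 518 units in rATB, 351 in buffer and 491 in control. The rATB level was 1.48 times buffer (1.43 to 1.53), and buffer was 0.714 times control (0.691 to 0.738). Stc2, which encodes the secreted glycoprotein stanniocalcin, had 10.7 units in rATB, 5.74 in buffer and 13.4 in control, so that buffer was 0.427 times control (0.334 to 0.542) from 98 reads. Adm, for the vasodilating peptide adrenomedullin, missed the filter with 11 reads in rATB, 9 in buffer and 13 in control, and its intervals all spanned 1.

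Of the protein folding and collagen genes, the members past the filter were lowest in buffer and highest in control. Ero1l, the oxidase that forms disulfide bonds in the endoplasmic reticulum, had 137 units in rATB, 101 in buffer and 160.4 in control, with buffer at 0.629 times control (0.593 to 0.668). P4ha1, a catalytic subunit of the collagen prolyl hydroxylase, had 135 units in rATB, 105 in buffer and 151 in control, with buffer at 0.698 times control (0.657 to 0.741). P4ha2, the other catalytic subunit in the list, also missed the filter. It had 12 reads in rATB, 5 in buffer and 23 in control, a buffer to control ratio of 0.226 (0.0672 to 0.608).

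Of the chromatin and remaining genes, Ndrg1 differed most between rATB and buffer. This stress gene, much used as a marker of hypoxia, had 153 units in rATB, 79.0 in buffer and 127 in control, with rATB at 1.93 times buffer (1.81 to 2.07) and 1.20 times control (1.13 to 1.27). Mxi1, a protein that opposes Myc, had 102 units in rATB, 71.8 in buffer and 90.8 in control. Ankrd37, a small ankyrin repeat gene, was instead low in both cultures that received something, at 12.6 units in rATB, 10.5 in buffer and 20.3 in control. It alone among the members was higher in control than in both others by at least 0.5 (background 0.478%), with rATB at 0.620 times control (0.518 to 0.739). Kdm3a, a histone demethylase, had 87.6 units in rATB, 93.3 in buffer and 109 in control.

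**Figure D2:**
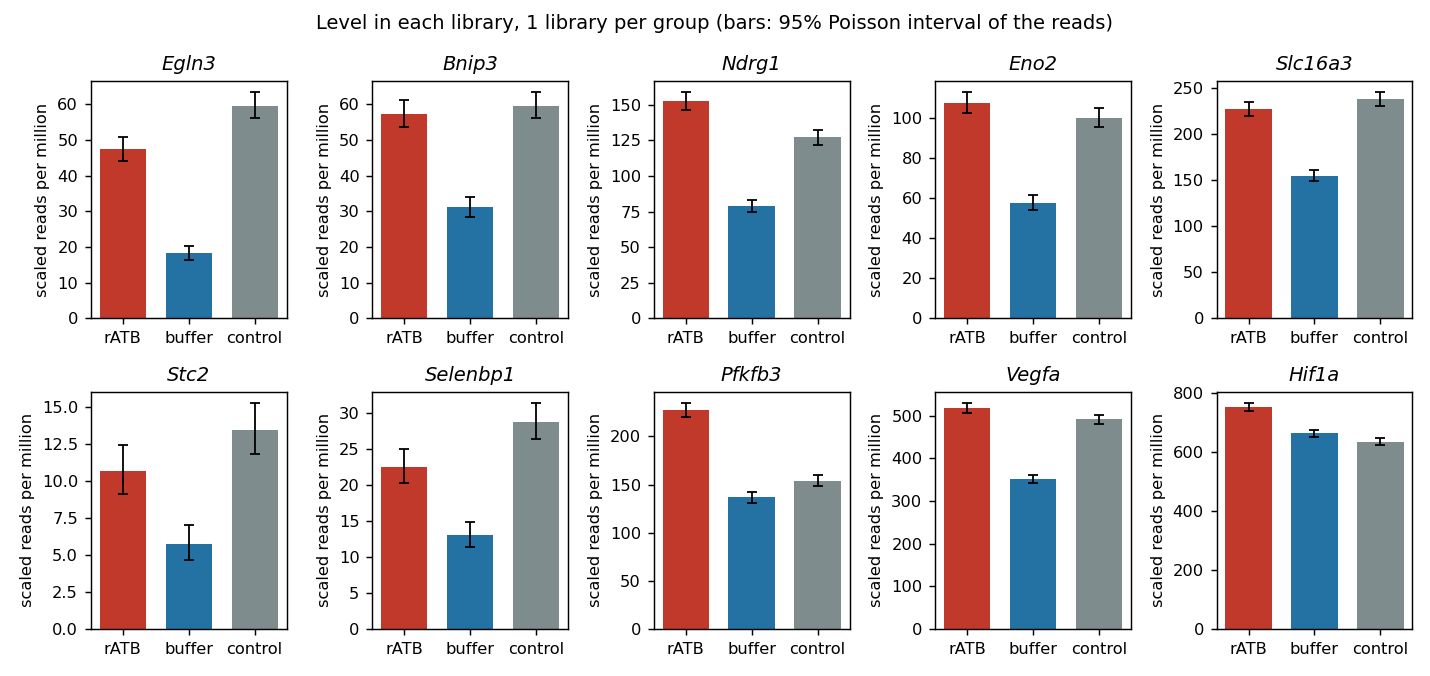
Level of 10 members in the rATB (red), buffer (blue) and control (grey) library, in units, 1 library per group; error bars are 95% Poisson intervals of the reads. Buffer is the lowest bar in all panels but Hif1a, for example 18.2 units for Egln3 against 47.3 in rATB and 59.6 in control, and rATB is the highest bar for Pfkfb3 at 227 units.

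The selenium-binding pair is not among the classic HIF targets and shares most of its sequence. Selenbp1, whose human counterpart oxidizes methanethiol, had 22.5 units in rATB, 13 in buffer and 28.7 in control, with buffer at 0.452 times control (0.385 to 0.530). Selenbp2 had 2.67 units in rATB, 0.820 in buffer and 2.76 in control, from 42 reads in rATB, 14 in buffer and 49 in control. Its ratio of rATB to buffer was 3.26 with a wide interval (1.74 to 6.46). The transcripts are at least 90% identical over at least 50% of their length, so reads of one can be assigned to the other, and their values are not independent.

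HIF-1 binds DNA at the short core ACGTG or GCGTG, and the 250 bases before the gene start were searched for both letter strings on both strands, the other strand reading as CACGT or CACGC. The RefSeq promoter table (build GRCm38.p6) had windows for 35 of the 37 members, Bnip3l and Ndrg1 having none. At least 1 core stood in a window of 32 of them (91.4%), 15 of the 18 glycolytic genes and all 17 others, against 62.1% of the 8415 symbols past the filter that matched the table and 41.5% of all 27025 symbols. Counted by window, 40 of 50 windows of members (80%) and 38.6% of all 32851 windows held one. Shown are the windows of the members lowest in buffer among the sensors, the mitochondrial genes and the transporters, and of the selenium-binding pair, with the cores in capitals and each read 5′ to 3′ along the gene. Egln3 lies on the minus strand (chr12:54203875-54204124), Bnip3 on the minus strand (chr7:138909507-138909756), Slc16a3 on the plus strand (chr11:120948817-120949066), Selenbp1 on the plus strand (chr3:94932833-94933082) and Selenbp2 on the plus strand (chr3:94693323-94693572).
Egln3: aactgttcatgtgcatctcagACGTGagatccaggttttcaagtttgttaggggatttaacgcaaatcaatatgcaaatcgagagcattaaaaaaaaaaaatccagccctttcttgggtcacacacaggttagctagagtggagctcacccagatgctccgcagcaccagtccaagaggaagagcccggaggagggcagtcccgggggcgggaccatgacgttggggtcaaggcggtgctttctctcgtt
Bnip3: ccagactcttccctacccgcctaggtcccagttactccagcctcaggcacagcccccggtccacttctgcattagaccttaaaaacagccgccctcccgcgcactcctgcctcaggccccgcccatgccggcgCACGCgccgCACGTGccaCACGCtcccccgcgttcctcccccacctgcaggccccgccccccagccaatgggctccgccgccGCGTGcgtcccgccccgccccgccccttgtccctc
Slc16a3: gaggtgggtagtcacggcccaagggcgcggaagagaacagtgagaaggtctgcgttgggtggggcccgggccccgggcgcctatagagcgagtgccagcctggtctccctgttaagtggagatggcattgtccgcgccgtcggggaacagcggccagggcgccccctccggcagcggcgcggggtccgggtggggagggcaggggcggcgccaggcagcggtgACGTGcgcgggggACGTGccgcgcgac
Selenbp1: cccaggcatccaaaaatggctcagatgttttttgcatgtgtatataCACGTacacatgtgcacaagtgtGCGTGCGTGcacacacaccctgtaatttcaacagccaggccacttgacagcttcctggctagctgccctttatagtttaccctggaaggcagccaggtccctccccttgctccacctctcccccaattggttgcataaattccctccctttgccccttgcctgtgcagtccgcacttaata
Selenbp2: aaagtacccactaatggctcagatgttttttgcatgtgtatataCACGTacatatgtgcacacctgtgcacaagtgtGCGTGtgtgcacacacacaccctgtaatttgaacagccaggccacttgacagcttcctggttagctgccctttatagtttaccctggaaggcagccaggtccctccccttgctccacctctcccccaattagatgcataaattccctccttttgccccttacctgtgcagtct
The Egln3 window held 1 core, 229 bases before the start, and the Bnip3 window 5, of which 2 overlap in CACGTG and count on both strands. Slc16a3 had 2 close to its start, 27 and 14 bases before it. The Selenbp1 window had 3 cores and the Selenbp2 window 2, and their windows were 94.5% identical over 238 aligned bases. Eno2, one of the 8 members low in buffer by at least 0.5, had none, and Stc2 had 2. A match is a string of letters and not a bound site.

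Glucose uptake and lactate export both had their lowest level in the buffer library. Slc2a1, a glucose transporter that activated immune cells rely on, had 229 units in rATB, 179 in buffer and 273 in control, with rATB at 1.28 times buffer (1.22 to 1.34) and buffer at 0.656 times control (0.627 to 0.687). Slc16a3 (ENSMUSG00000025161), which carries lactate out of glycolytic cells, had 228 units in rATB, 155 in buffer and 238 in control. The rATB level was 1.47 times buffer (1.39 to 1.54) and 0.955 times control (0.913 to 0.999), and buffer was 0.651 times control (0.620 to 0.684).

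Of the upper glycolytic enzymes, all but Pfkp and Aldoc were lowest in buffer. Hk2, the inducible hexokinase, had 252 units in rATB, 188 in buffer and 254 in control, and its rATB to control interval (0.950 to 1.04) spanned 1. Hk1, the hexokinase of most tissues, had 125 units in rATB, 108 in buffer and 151 in control. Gpi1, the isomerase of the next step, had 373 units in rATB, 356 in buffer and 472 in control, close in rATB and buffer at a ratio of 1.05 (1.01 to 1.09). The phosphofructokinases of liver and platelet type did not match. Pfkl had 296 units in rATB, 234 in buffer and 325 in control. Pfkp had 169 units in rATB, 187 in buffer and 206 in control, with rATB at 0.903 times buffer (0.857 to 0.951). It was the only member lower in rATB than in both others by interval. The background was 15.4% of all genes and 20.2% of those of at least 20 units. Of the aldolases, which split the sugar, Aldoa had 1225 units in rATB, 1108 in buffer and 1386 in control. Aldoc had 89.2 units in rATB, 95.1 in buffer and 118 in control. Tpi1, which interconverts the products, had 322 units in rATB, 249.6 in buffer and 368 in control, with buffer at 0.679 times control (0.653 to 0.705).

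Among the lower enzymes, Eno2 stood apart from its relative Eno1. Eno2, the enolase best known from neurons, had 107 units in rATB, 57.6 in buffer and 99.9 in control, with rATB at 1.87 times buffer (1.72 to 2.02) and buffer at 0.577 times control (0.533 to 0.624). Eno1, the enolase of most tissues, had 72.1 units in rATB, 65.5 in buffer and 98.2 in control. Pgk1, which makes the first ATP of the pathway, had 38.1 units in rATB, 28.3 in buffer and 39.9 in control. Pgam1, the mutase after it, had 49.2 units in rATB, 43.4 in buffer and 47.7 in control, and its rATB to control interval spanned 1 (0.934 to 1.14). Ldha, which turns pyruvate into lactate, had 649.7 units in rATB, 568 in buffer and 723 in control, with buffer at 0.786 times control (0.766 to 0.807). Gapdh, often used as a reference gene, had 14.4 units in rATB, 14.1 in buffer and 15.2 in control, and all 3 of its intervals spanned 1.

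Copies with near-identical sequence held many of the reads of some enzymes. In the annotation, 149 other genes, 146 of them pseudogenes, have a transcript at least 90% identical to that of Gapdh over at least 50% of both, and 60 are in the table. They held 4155 reads in rATB, 4517 in buffer and 5391 in control, while Gapdh itself had 226 in rATB, 241 in buffer and 271 in control. Gpi1 shared its sequence with 1 pseudogene holding 8273 reads in rATB, 8621 in buffer and 11869 in control, more than Gpi1 itself. Eno1 had 1135 reads in rATB, 1118 in buffer and 1745 in control, beside 1162 in its copies in rATB, 1355 in buffer and 1775 in control. With the copies added its difference for rATB minus buffer shrank to 0.01 and for buffer minus control to -0.45. The copies of Aldoa held 772 reads in rATB, 904 in buffer and 1128 in control, and those of Ldha 227 in rATB, 235 in buffer and 281 in control, few beside the genes themselves. Pgk1 had 2 copies, both with 0 reads in every library. How reads that match several copies were counted is not known, so its value may be uncertain too. Values of the 5 genes whose copies held reads, and of the selenium-binding pair, are therefore uncertain, but with all members that have copies left out, 22 of the remaining 27 (81.5%) were still lowest in buffer.

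**Figure D3:**
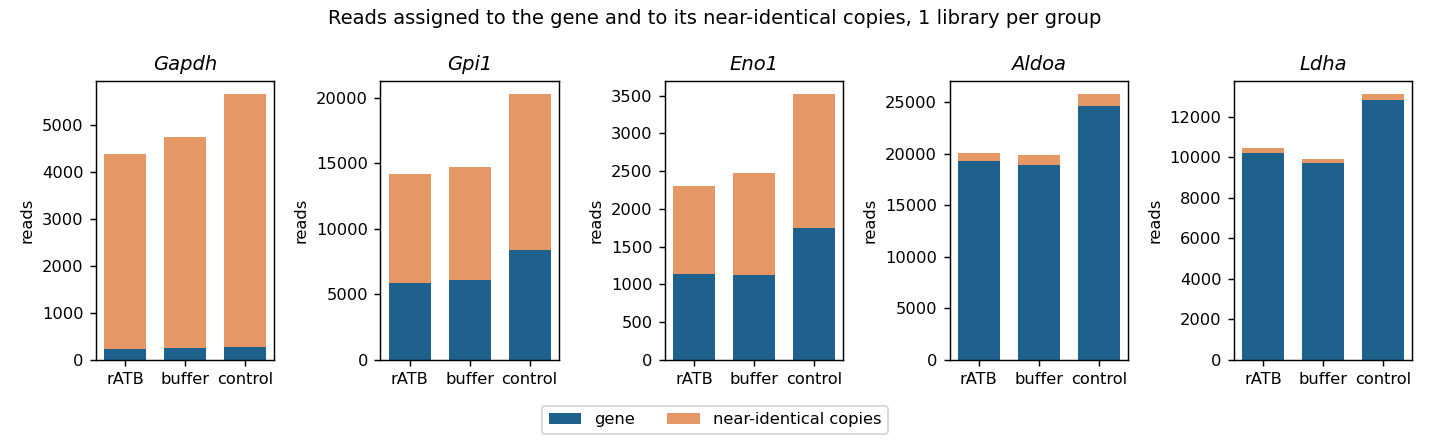
Reads assigned to 5 glycolytic genes (blue) and to annotated near-identical copies of them (orange) in each library, not scaled for depth, so that only the split within a bar should be read. The copies held most of the reads of Gapdh (4155 against 226 in rATB) and of Gpi1, about as many as the gene for Eno1, and a small share for Aldoa and Ldha.

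Both regulators of the pathway were lowest in buffer, but Pfkfb3 was highest in rATB and Pdk1 in control. Pfkfb3, which makes the sugar phosphate that speeds up phosphofructokinase, had 227 units in rATB, 137 in buffer and 154 in control. Its rATB level was 1.66 times buffer (1.58 to 1.75) and 1.47 times control (1.40 to 1.55). It was the only member higher in rATB than in both others by at least 0.5 (background 2.85%), and none was lower by that rule (background 3.01%). No member differed by 1 or more from both (background 0.621% higher and 0.557% lower). Pdk1, the kinase that keeps pyruvate out of mitochondria, had 41.1 units in rATB, 30.0 in buffer and 50.2 in control, with buffer at 0.597 times control (0.535 to 0.667). For being higher in rATB than both others by interval, the background was 11.4% of all genes and 14.6% at 20 units or more. By that rule 7 members (20%) were higher. They were Pfkfb3, Eno2, Hif1a, Bnip3l, Vegfa, Mxi1 and Ndrg1, and apart from Pfkfb3 their rATB level was at most 1.20 times the control level.

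Side by side, the glycolytic genes and the other hypoxia response genes had a like order of libraries, and the hypoxia list reached further. For rATB minus buffer the median was 0.27 over the 18 glycolytic genes (range -0.15 to 0.89) and 0.44 over the 17 others (range -0.09 to 1.34). For rATB minus control the median was -0.17 over the glycolytic genes and -0.15 over the others, and for buffer minus control -0.45 over the glycolytic genes and -0.57 over the others. Buffer was lowest for 16 of the 18 glycolytic genes and for 14 of the 17 others, against 35.8% of all genes. Lower in buffer than in both by at least 0.5 were 2 glycolytic genes (11.1%) and 6 others (35.3%), against 0.342% of all genes. By interval it was 14 glycolytic genes (77.8%) and 11 others (64.7%). The background was 7.81% of all genes and 12.3% of those of at least 20 units. Both counts of the others include Selenbp1 and Selenbp2, whose values are not independent. The members were chosen with earlier results of these data known. These lists were set side by side and their difference was not tested.

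Taken pair by pair, 11 of the 35 members were higher in rATB than in buffer by at least 0.5, against 4.48% of all genes, and none was lower (background 4.7%). In rATB against control, Pfkfb3 was higher by that rule (background 4.14%) and Ankrd37 lower (background 5.62%). By interval, which takes smaller differences, 21 members (60%) were lower in rATB than in control. The background was 27.3% of all genes and 35.8% of those of at least 20 units. Higher were 7 members (20%), against 14.5% of all genes and 17.1% of those of at least 20 units. In buffer against control, 16 members were lower by at least 0.5 (background 1.31%) and 4 by at least 1 (background 0.0557%), and none was higher by 0.5 (background 0.756%). The 4 were Egln3, Stc2, Selenbp1 and Selenbp2.

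Compared per kilobase of exon, since longer transcripts give more reads, the most abundant members were Aldoa, with 421 units per kb in rATB, 381 in buffer and 476 in control, and Ldha, with 196 in rATB, 172 in buffer and 218 in control. Hif1a (128 units per kb in rATB, 112 in buffer and 108 in control), Vegfa (121 in rATB, 81.9 in buffer and 115 in control) and Tpi1 (117 in rATB, 90.7 in buffer and 134 in control) came next, in an order that depended on the library. By length of the longest coding transcript, Tpi1 would instead lead Hif1a and Vegfa in every library. Among the hydroxylases, Egln1 was the highest in each library, with 31.0 units per kb in rATB, 23.3 in buffer and 34.8 in control. Egln3 came after it in rATB (17.8) and control (22.4) but was below Egln2 in buffer, at 6.82 against 15.8 units per kb. That order rests on the length used, as Egln2 has a union of 2800 bases and a longest coding transcript of 2107. By longest coding transcript (2662 bases for Egln3), Egln2 would lie above Egln3 in every library. The values per kilobase use unions of exons in GENCODE M21, which need not be the authors' annotation. Reads on near-identical copies were left out, so Gpi1, Gapdh and Eno1, whose copies held more reads than they did, may rank too low.

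Other genes of these pathways, in 5 lists of 99 symbols of which 85 passed the filter, were counted by the same rules. Lower in buffer than in both others by interval were 17 of the 85 (20%), among them 10 of 29 other HIF targets (34.5%). The background was again 7.81% of all genes and 12.3% of those of at least 20 units. The 10 include Ddit4, Nos2 and Arg1, which were listed with earlier results on them known. For buffer minus control the median was -0.18 over the other HIF targets, -0.11 over 26 other glycolysis and pyruvate genes, -0.09 over 11 genes of gluconeogenesis and glycogen, -0.07 over 7 of the pentose phosphate pathway and -0.03 over 12 HIF factors and their turnover genes. By at least 0.5, 4 were lower in buffer (4.71%, against 0.342% of all genes), of which 3 are described. Gys1, the glycogen synthase of muscle and most other tissues, had 104 units in rATB, 72.7 in buffer and 112 in control. Ppp1r3b, which targets a phosphatase to glycogen, had 48.9 units in rATB, 27.5 in buffer and 49.4 in control. Nos2, the nitric oxide synthase named above, had 22.7 units in rATB, 0.586 in buffer and 7.48 in control, from 357 reads in rATB, 10 in buffer and 133 in control, and it ranked 1 among all genes for being low in buffer. It was listed with earlier results on it known, as were Arg1, Ddit4 and Tfrc.

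Some genes of these lists differed in rATB. Higher than in both others by at least 0.5 were 7 of the 85 (8.24%), against 2.85% of all genes, and lower were 3 (3.53%), against 3.01%. Without the 4 genes known from earlier results, 4 of 81 were higher (4.94%) and 2 lower (2.47%). The lactate and pyruvate carrier Slc16a1 had 20.1 units in rATB, 12.8 in buffer and 11.7 in control. Slc2a6, a relative of the glucose transporters, was lower, with 104 units in rATB, 226 in buffer and 264 in control. Epas1, the gene for HIF-2α, had 12.7 units in rATB, 5.45 in buffer and 7.03 in control. Arnt2, a partner of the HIF proteins, had 9.53 units in rATB, 14.8 in buffer and 19.2 in control. Among the HIF targets, heme oxygenase Hmox1 had 399 units in rATB, 236 in buffer and 266 in control, and the chemokine receptor Cxcr4 had 112 in rATB, 58.3 in buffer and 60.9 in control. Ddit4, Nos2 and Arg1 were the other 3 that were higher in rATB, and the transferrin receptor Tfrc the other lower one. Ak4, a mitochondrial adenylate kinase, was higher in control than in both others, at 22.0 units in rATB, 19.6 in buffer and 36.0 in control. No gene of the pentose phosphate pathway met the rule in any library, and there G6pdx, its first enzyme, was furthest down in rATB, with 150.4 units in rATB, 207 in buffer and 222 in control, and Pgls, its second enzyme, furthest up, with 80.3 in rATB, 70.7 in buffer and 73.9 in control. In gluconeogenesis and glycogen the furthest up in rATB was the phosphoglucomutase Pgm1, with 40.5 units in rATB, 35.8 in buffer and 38.2 in control, and the furthest down G6pc3, a glucose-6-phosphatase, with 34.9 in rATB, 36.8 in buffer and 41.0 in control.

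**Figure D4:**
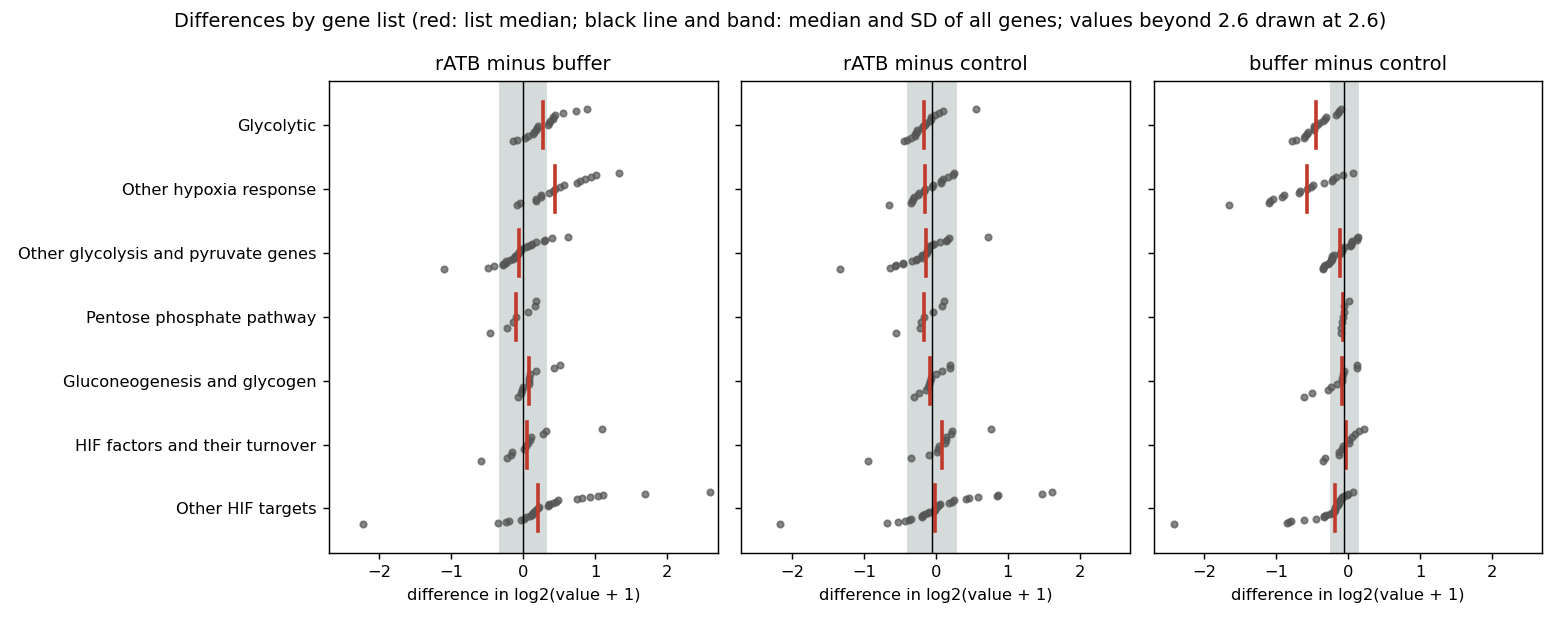
Difference in log2(value + 1) for each gene past the filter, by list, for rATB minus buffer (left), rATB minus control (middle) and buffer minus control (right); red bars are list medians, and the black line and grey band are the median and SD of all 12559 genes. In the right panel the red bars of the upper 2 lists, the members, lie at -0.45 and -0.57 while those of the other lists lie between -0.18 and -0.03.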

How the data were processed

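Messenger RNA was measured in 3 libraries, 1 per group. Per the labels' protocols, RNA was extracted with TRIzol and read as 150-bp pairs from TruSeq version 2 libraries, which do not mark strand, so overlapping antisense genes cannot be told apart. The aligner was TopHat2 2.0.13, per the submitters' processing notes. These name GRCh37, a human build, while the gene identifiers are mouse ones, so no coordinates of the files were used. How reads were counted and scaled, and on which annotation, is not given in the sources used here.

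Deposited values are log2 of scaled reads per gene in a table of the whole series, and genes with no reads have an error value in place of a log2 value, taken as 0. Turned linear, the values of each library were whole multiples of 1 step (100% within 1e-06), so the authors' scaling factor (1.13 for rATB, 1.04 for buffer, 1 for control) and the reads per gene could be recovered. The design had foreseen normalised values or counts. The recovered reads served for the intervals and the read counts, and times the scaling factor they gave the units. Of 37991 gene rows, those sharing a symbol were summed, and 25 symbols damaged by a spreadsheet were restored.

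A pseudocount of 1 unit, a filter on the mean (1 unit or more across libraries) and differences of 0.5 and 1 were used. Because the mean runs over all libraries, a gene high in only 1 of them can pass. With 1 library per group no test was made. The floor was 3 reads (0.191 units in rATB, 0.176 in buffer, 0.169 in control). The members and all lists were chosen with earlier results of these data known. Every member is named. Of each other list, genes that differed by at least 0.5 from both other libraries are named, or, with fewer than 2 such genes, those furthest up and down in rATB; 1 gene that met this rule is not reported here. Copies were found with blastn 2.17.0 on GENCODE M21 transcripts (90% identity, 50% of both transcripts). Counting was tested on simulated data. Python 3.11.15, pandas 2.3.3 and scipy 1.17.1 were used. Alternatives were another pseudocount (0.1), filter (5 units or none), scaling, row choice and treatment of copies.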

Additional observations from a re-analysis of the deposited data

How the results depend on the processing

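Under 10 alternatives, 3 of them chosen after seeing the data, no member's difference turned its direction past its counting interval. Of the counts over members, 115 stayed within 1.5 times and 5 did not. The 2 members lower in buffer than in both others by at least 1 became 1 with a filter of 5 units, with copies added, with members that have copies left out and without Selenbp1 and Selenbp2. The 1 member lower in rATB than in both others by interval became 3 with the reads of each library's own total as the scale. Lower in buffer by at least 0.5 were 6 to 8 members, and by interval 18 to 26, the lowest with members that have copies left out. Buffer was lowest for 28 of 35 members (80%) on that scale, where Gapdh and Bnip3l joined the exceptions, and for 29 with copies added. The median for buffer minus control ranged from -0.47 to -0.37 over glycolytic genes and from -0.58 to -0.49 over the others, and for rATB minus buffer from 0.24 to 0.36 and from 0.40 to 0.44. Of the single differences, 32 moved past their counting interval in size and 985 did not. Over all genes, those lower and higher in buffer by at least 0.5 were 43 and 30, but 126 and 82 with a pseudocount of 0.1 and 23 and 5 with a filter of 5 units. Without the 4 genes known from earlier results, also chosen after seeing the data, the 7 other pathway genes higher in rATB became 4. No paired analysis was possible because each group has 1 library. The replicate error is unknown, and under 3 reads a level was not told from 0.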

Other observations

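Of the 43 genes lower in buffer than in rATB and control by at least 0.5, 31 were on neither the member list nor the other pathway lists. Those described here were chosen after their values were seen. Hilpda, a lipid droplet protein that hypoxia induces, had 69.2 units in rATB, 35.6 in buffer and 57.6 in control, and its differences were 0.94 for rATB minus buffer and -0.68 for buffer minus control, the same to 2 decimals as those of Ndrg1. Dgat2, an enzyme of triglyceride synthesis, had 8.01 units in rATB, 1.87 in buffer and 3.49 in control. Cxcr7, an atypical chemokine receptor, had 47.0 units in rATB, 16.3 in buffer and 33.0 in control. The Fc receptor gene Fcgr4 had 46.5 units in rATB, 15.8 in buffer and 26.9 in control. The coagulation factor gene F13a1 had 11.3 units in rATB, 2.69 in buffer and 6.30 in control. Apoe, an abundant lipid carrier of macrophages and dendritic cells, had 579.6 units in rATB, 375 in buffer and 725 in control.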
